A study of Mus musculus with 12 samples.

Results

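Genomic imprinting leaves a gene active on only the maternal or the paternal chromosome, according to DNA methylation marks that are set in the germ line and kept in the embryo by proteins such as ZFP57, TRIM28 and DNMT1. Imprinted genes lie in clusters, in which a methylated control region and often a long noncoding RNA decide which allele of each neighbour is read. Many of them act on the growth of the fetus and the placenta, and mouse embryonic stem (mES) cells carry the marks but express only some of the genes. The 35 imprinted genes described here were taken from a list of known members and assigned to a cluster and an expressed allele from textbook genetics, and 35 of the 35 were found among the 24421 genes of the count table. They belong to 16 clusters, and 12 are known as maternally expressed, 22 as paternally expressed and 1, Gnas, uses the maternal, the paternal or both alleles depending on promoter and tissue. Of the maternal ones, Ube3a is so in neurons, Grb10 outside the brain and Commd1 by a bias. Whether the assigned allele is the one expressed in these cells was not tested for any member.

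The 12 libraries were made from total RNA of mES cells, 2 for each dose of dTAG13 (0, 0.3, 1, 3, 10 and 100 nM), which was given for 24 h. Every library, the 0 nM controls included, came from B6 (C57BL/6J, per the study's methods) cells of the genotype Brg1 dTag knock in, whose BRG1, the main ATPase of the mSWI/SNF chromatin remodelling complexes in these cells, carries an FKBP12-F36V degron through which dTAG13 sends the protein to the proteasome. The cells were grown without feeders on gelatin in serum with LIF and 2i, and the knock-in line was raised from single-cell colonies. Untagged cells were not among the libraries, and since B6 is an inbred strain, the counts are totals over both alleles in which a gain from the silent allele and a gain from the active one cannot be told apart.

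Library totals ran from 4663484 to 6375582 counted read pairs. The transcript of the degraded protein, Smarca4, lay between 63.1 and 70.9 RPKM (counts per kilobase of exon, scaled to library size) in the 12 libraries, so the degradation, which acts on the protein, is not checked by these data. The summed level of 8 naive mES cell markers was 1248 to 1395 RPKM, whereas 8 fibroblast or feeder markers together stayed between 2.08 and 4.50 RPKM. The sample numbers in the file's column names form 1 series over the 0, 1, 10 and 100 nM libraries and another over the 0.3 and 3 nM libraries, and what these numbers stand for is not stated. The comparison of 3 with 0.3 nM lies within 1 series of numbers, as do those of 1, 10 and 100 nM with 0 nM, and those of 0.3 and 3 nM with 0 nM do not.

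At 0 nM the members ranged from Mest, at 61.4 RPKM, down to Magel2, at 0.0722 RPKM, leaving aside Snrpn, most of whose exon bases are shared with another gene. A mean of 1 RPKM over the 12 libraries was reached by 22 members, while the other 13 had 0 to 24 counts per library. These 13 were Igf2, Cdkn1c, Ascl2, Airn, Mirg, Dlk1, Rtl1, Dio3, Usp29, Zim1, Snrpn, Magel2 and Peg12. Meg3 and Mkrn3 passed narrowly, at 1.04 and 1.14 RPKM, and Cdkn1c and Dio3, at 0.966 and 0.824 RPKM, did not. Members above the minimum were read from the fit of the 11378 genes that reached it and the others from a fit of all 23204 genes with a count. A gene is called below when edgeR's quasi-likelihood test gave a Benjamini-Hochberg adjusted p below 0.05 and a fold change above 1.5.

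With 100 nM dTAG13, Peg10, Plagl1 and Sgce rose, and H19, Meg3, Mest, Rian and Slc38a4 fell. These are 8 of the 22 members tested above the minimum, 3 higher and 5 lower, where 4.37% of all genes tested were called higher and 6.83% lower. In the fit without the minimum, 11 of 35 members were called, with Zim1 added among the higher and Ascl2 and Dio3 among the lower, where 3.37% of all genes were called higher and 4.62% lower. By parental origin, 8 maternally and 13 paternally expressed members were tested above the minimum, besides Gnas. The 3 risers above it were paternally expressed, with Peg10 and Sgce starting 0.1 kb apart, whereas Zim1 is maternally expressed. The 5 that fell were 3 maternally expressed noncoding RNAs and the paternally expressed Mest and Slc38a4. Of these RNAs, Meg3 and Rian share a cluster. The median change of the 22 members, as log2 fold change (log2 FC), was -0.16, against 0 for all genes tested.

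At 10 nM, 2 members were called higher (Peg10 and Plagl1) and 6 lower (H19, Meg3, Mest, Nnat, Rian and Slc38a4), where 3.01% and 4.92% of all genes were. At 3 nM, Peg10 was called higher and Meg3, Rian and Slc38a4 lower, where the shares of all genes were 1.52% and 2.38%. At 1 nM, Peg10 was called higher and Nnat, Rian and Slc38a4 lower, where 0.185% and 0.729% of all genes were called. At 0.3 nM, 0 of 22 members were called by edgeR's quasi-likelihood test, by its likelihood ratio test or by DESeq2, where 0% of all genes were called higher and 0.0176% lower. An unadjusted p below 0.05 was reached by 7 of the 22 at that dose and by 7.55% of all genes tested. All 5 of these comparisons share the 0 nM libraries. Between 3 and 0.3 nM, which share no library with 0 nM, Peg10 was higher and Rian lower, where 0.747% and 1.2% of all genes were called. A test of any difference among the 6 conditions was passed by 12 of the 22 members and by 21.4% of all genes tested.

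Several of these counts rest on single libraries. The 4 members called at 1 nM became 1 without replicate 1 of 0 nM, 2 without replicate 2 of 0 nM and 1 without replicate 2 of 1 nM, and the calls of Nnat and Rian were lost each time. The 4 called at 3 nM became 2 without replicate 1 of 3 nM, and the 8 called at 10 and at 100 nM became 4 and 5 without replicate 2 of 0 nM. Without that library the 11 called at 100 nM in the fit of all genes became 7.

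**Figure D1:**
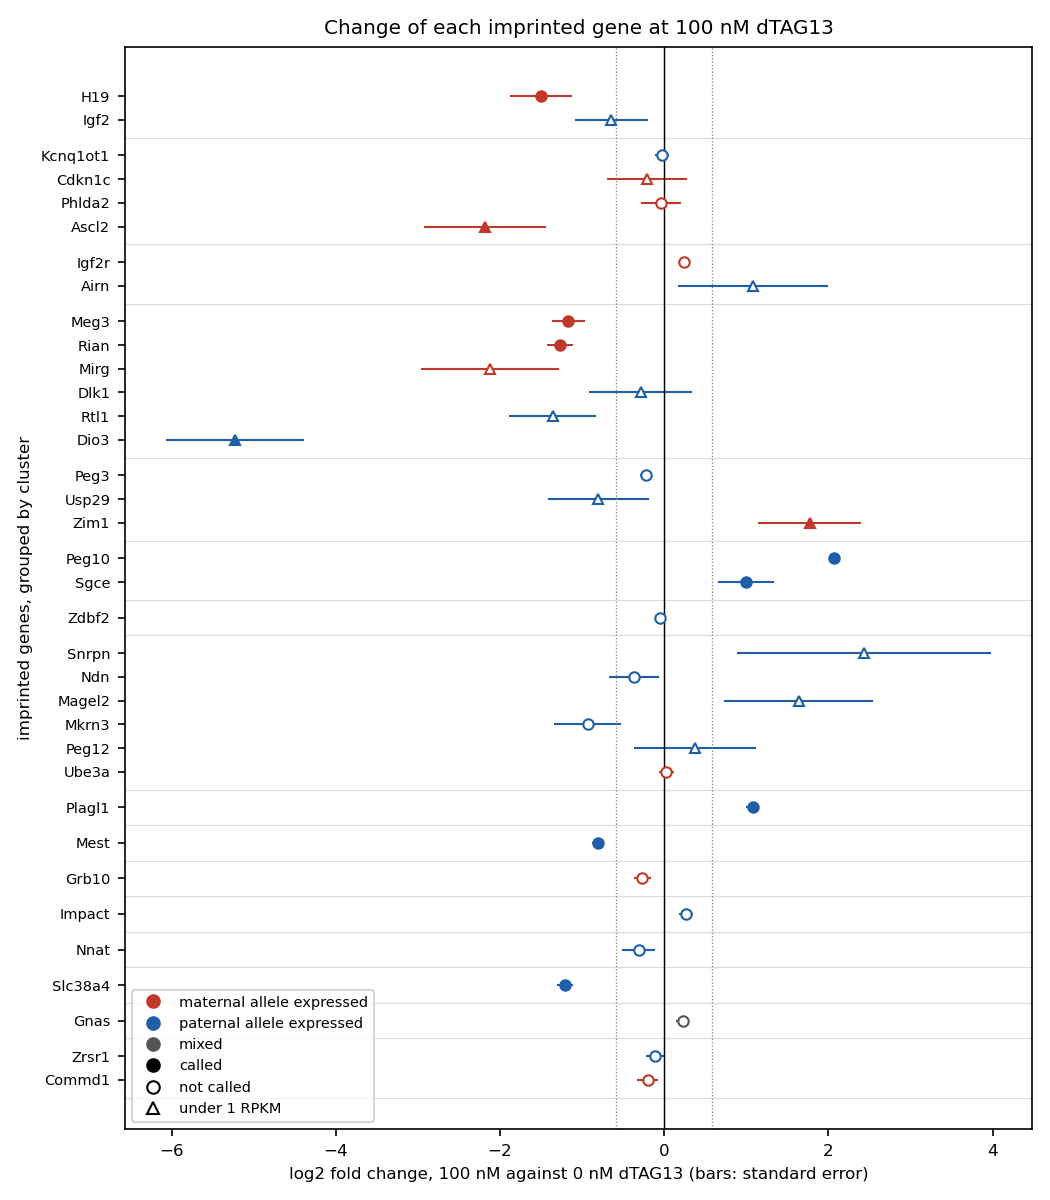
log2 fold change of each of the 35 imprinted genes at 100 nM against 0 nM dTAG13, with its standard error, grouped by cluster and coloured by the expressed parental allele. Filled symbols are called genes, triangles are genes under a mean of 1 RPKM, and dotted lines mark a fold change of 1.5. Peg10, at 2.07, lies farthest to the right among the called genes and Dio3 farthest to the left, at a fitted -5.23 that depends on the prior count, since its 100 nM libraries held 1 count in all.

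Peg10, a retrotransposon-derived gene without which the placenta fails, lies on mm10 chr6:4747306-4760516 and had the strongest rise among the called members. Its counts were 2052 and 2214 (0 nM), 2353 and 2389 (0.3 nM) and 3273 and 3366 (1 nM). Peg10 then had 3954 and 4113 (3 nM), 6663 and 6651 (10 nM) and 9289 and 8926 (100 nM). Both libraries of each dose lay above both libraries of every lower dose. The level went from 53.1 ± 0.832 RPKM at 0 nM to 82.8 ± 1.00 at 1 nM, 168 ± 4.99 at 10 nM and 223 ± 8.30 at 100 nM (SD, n = 2), which is 156%, 316% and 421% of the 0 nM level. Its log2 FC was 0.23 (standard error, SE, 0.06, adjusted p = 0.156) at 0.3 nM, 0.64 (adjusted p = 1.83e-07) at 1 nM and 2.07 (SE 0.06, adjusted p = 2.54e-19) at 100 nM. Between 3 and 0.3 nM it was 0.88 (SE 0.05, adjusted p = 1.85e-10).

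Sgce encodes epsilon-sarcoglycan and is read in the opposite direction from a start 0.1 kb away from that of Peg10, from the same paternal chromosome. Its counts were 16 and 23 (0 nM), 14 and 21 (0.3 nM) and 12 and 15 (1 nM). Sgce then had 20 and 39 (3 nM), 26 and 28 (10 nM) and 33 and 46 (100 nM). It stood at 1.72 ± 0.373 RPKM at 0 nM and 3.44 ± 0.770 at 100 nM (SD, n = 2), a log2 FC of 0.99 (SE 0.34, adjusted p = 0.0372). Both 100 nM libraries were above both 0 nM libraries, but the call was lost with DESeq2 (adjusted p = 0.134) and without replicate 1 of 0 nM (0.216), replicate 2 of 0 nM (0.0686) or replicate 2 of 100 nM (0.272). Of the other tested genes within 1 Mb of Peg10, Casd1 had a log2 FC of 0.47 (SE 0.16, adjusted p = 0.0319), below the fold required for a call, and Ppp1r9a, Pon2 and Bet1 had 0.12, 0.50 and -0.10 and did not pass the test.

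Plagl1, a zinc finger transcription factor known to bind other imprinted genes, was called higher at 10 and 100 nM only. Its counts were 892 and 987 (0 nM), 963 and 984 (0.3 nM) and 1055 and 1024 (1 nM). Plagl1 then had 1026 and 1028 (3 nM), 1463 and 1738 (10 nM) and 1968 and 2063 (100 nM). Both 0 nM libraries (28.9 and 30.3 RPKM) were below those of 0.3 nM (32.1 and 32.6) and 1 nM (33.5 and 32.2), without a call. From 29.6 ± 0.992 RPKM at 0 nM the level reached 36.9 ± 3.39 at 3 nM, and it was 51.2 ± 7.79 with 10 nM and 62.6 ± 1.52 with 100 nM (SD, n = 2). The log2 FC was 0.32 at 3 nM (adjusted p = 0.0143, below the required fold), 0.79 at 10 nM (adjusted p = 8.46e-08) and 1.08 at 100 nM (SE 0.08, adjusted p = 1.37e-10). Hymai, the noncoding RNA whose start lies 0.1 kb away and which shares 3.42% of the exon bases of Plagl1, had a log2 FC of 0.90 at 100 nM (SE 0.24, adjusted p = 0.00753).

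**Figure D2:**
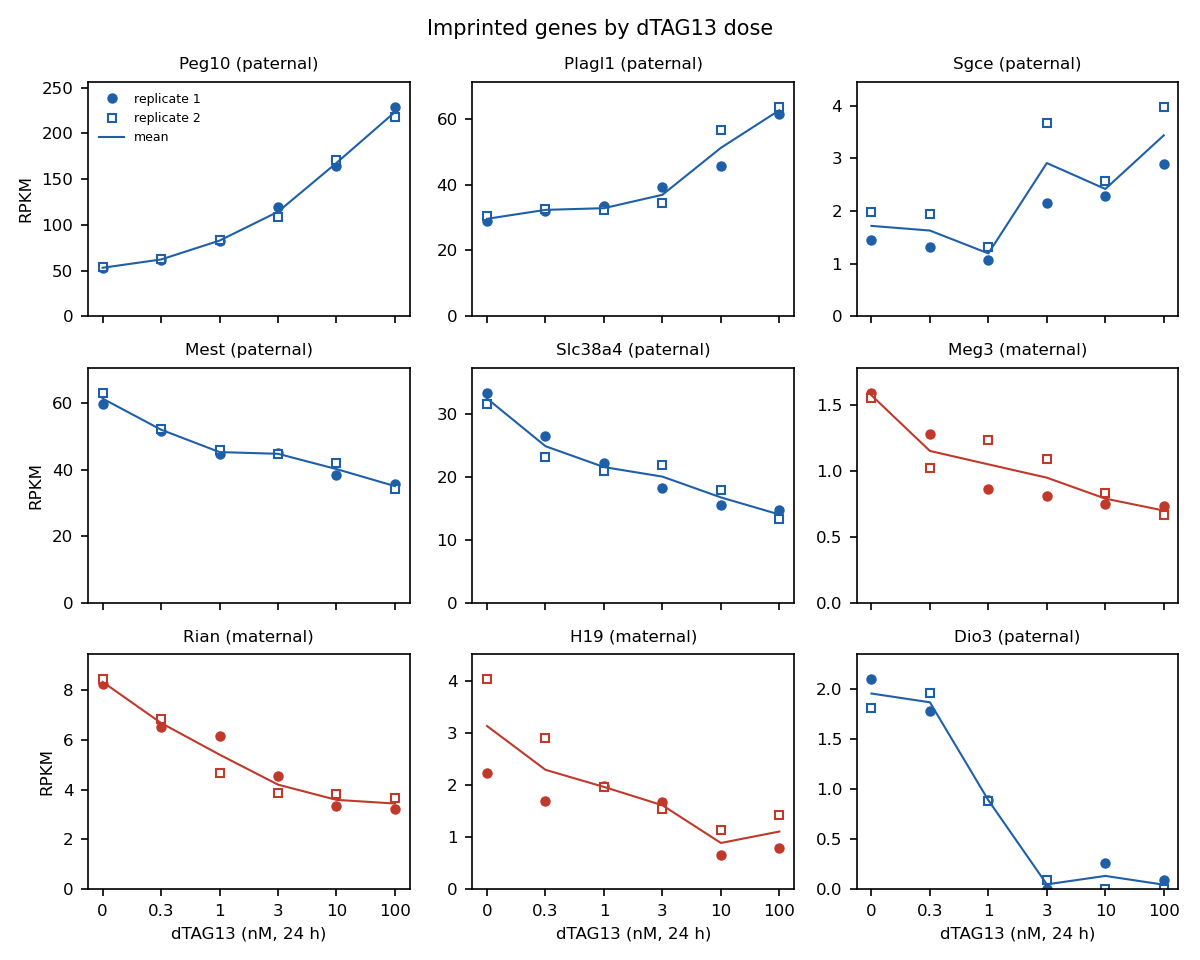
RPKM of 9 imprinted genes in each of the 12 libraries against the dTAG13 dose in nM (categories, not to scale), with replicate 1 as filled circles, replicate 2 as open squares and a line through the means of 2. Blue marks paternally and red maternally expressed genes. Peg10 climbs from 53.1 to 223 RPKM, whereas Dio3 goes from 1.96 to 0.0440 RPKM. Dio3 stands at 1.87 RPKM at 0.3 nM, 0.890 at 1 nM and 0.0473 at 3 nM.

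Slc38a4, an amino acid transporter of liver and placenta whose paternal allele is expressed, had the strongest fall among members with over 300 counts in every library. Its counts were 770 and 770 (0 nM), 597 and 525 (0.3 nM) and 523 and 499 (1 nM). Slc38a4 then had 356 and 488 (3 nM), 374 and 411 (10 nM) and 354 and 322 (100 nM). All libraries with dTAG13 were below both 0 nM libraries. The level went from 32.5 ± 1.24 RPKM at 0 nM to 21.6 ± 0.884 at 1 nM and 14.1 ± 1.07 at 100 nM (SD, n = 2), 66.4% and 43.2% of the 0 nM level. The log2 FC was -0.59 at 1 nM (SE 0.09, adjusted p = 0.000558) and -1.21 at 100 nM (SE 0.10, adjusted p = 6.25e-10), and between 3 and 0.3 nM it was -0.31 (adjusted p = 0.0672). The call at 1 nM was lost without replicate 1 of 0 nM or replicate 2 of 1 nM, and that at 3 nM without replicate 1 of 3 nM. The neighbouring transporter genes of the same family, Slc38a1 and Slc38a2, changed by -0.25 (adjusted p = 0.0151) and 0.19 (adjusted p = 0.0332) on the log2 scale at 100 nM, both below the required fold.

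Mest, a paternally expressed member of the alpha/beta hydrolase family, fell in steps. Its counts were 972 and 1083 (0 nM), 819 and 834 (0.3 nM) and 743 and 770 (1 nM). Mest then had 618 and 702 (3 nM), 648 and 680 (10 nM) and 604 and 587 (100 nM). No library with dTAG13 reached either 0 nM library, and the 100 nM libraries were the lowest. The level was 61.4 ± 2.36 RPKM at 0 nM, 45.3 ± 0.794 at 1 nM and 35.04 ± 1.02 at 100 nM (SD, n = 2). The log2 FC passed the test but not the required fold at 1 nM (-0.44, adjusted p = 0.000619) and 3 nM (-0.46, adjusted p = 0.000116), and it was called at 10 nM (-0.61, adjusted p = 6.39e-07) and 100 nM (-0.81, SE 0.07, adjusted p = 3.58e-09). The call at 10 nM was lost without replicate 2 of 0 nM, without replicate 1 of 10 nM and without normalization factors. Of the exon bases of Mest, 32.9% overlap the antisense gene Copg2, and pairs in the overlap were not counted for either gene.

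Nnat, which encodes the small membrane protein neuronatin and is paternally expressed, did not follow the dose. Its counts were 113 and 107 (0 nM), 60 and 87 (0.3 nM) and 57 and 68 (1 nM). Nnat then had 63 and 68 (3 nM), 87 and 52 (10 nM) and 87 and 93 (100 nM). All libraries with dTAG13 were below both 0 nM libraries, and the 100 nM mean was nearest to them. It was called at 1 nM (log2 FC -0.81, SE 0.21, adjusted p = 0.0345) and 10 nM (-0.65, adjusted p = 0.0274), but not at 100 nM (-0.31, SE 0.20, adjusted p = 0.273). Both calls were lost with DESeq2 and without either of the 0 nM libraries. The call at 1 nM was also lost without either 1 nM library, and that at 10 nM without replicate 2 of 10 nM.

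The Dlk1-Dio3 cluster on chromosome 12 holds 3 maternally expressed noncoding RNAs, Meg3, Rian (host of small nucleolar RNAs) and Mirg (host of microRNAs), and the paternally expressed protein-coding genes Dlk1, Rtl1 and Dio3. Members of both parental origins fell. Rian, on mm10 chr12:109603945-109661711, had counts of 173 and 187 (0 nM), 133 and 141 (0.3 nM) and 132 and 101 (1 nM). Rian then had 81 and 78 (3 nM), 73 and 80 (10 nM) and 70 and 81 (100 nM). Every library from 1 nM upwards was below every library at 0 and 0.3 nM. The log2 FC was -0.62 at 1 nM (SE 0.15, adjusted p = 0.0222), -0.99 at 3 nM (adjusted p = 0.000144) and -1.27 at 100 nM (SE 0.16, adjusted p = 1.02e-06), and between 3 and 0.3 nM it was -0.67 (SE 0.17, adjusted p = 0.0143). The call at 1 nM was lost with DESeq2, with no normalization factors, and without either 0 nM library or replicate 2 of 1 nM. The call between 3 and 0.3 nM was lost with DESeq2 and without either 0.3 nM library or replicate 2 of 3 nM.

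Meg3, on mm10 chr12:109540996-109571729, had counts of 121 and 125 (0 nM), 95 and 76 (0.3 nM) and 67 and 97 (1 nM). Meg3 then had 52 and 80 (3 nM), 59 and 63 (10 nM) and 58 and 53 (100 nM). It fell from 1.58 ± 0.0237 to 0.7001 ± 0.0509 RPKM (SD, n = 2), a log2 FC of -1.17 at 100 nM (SE 0.20, adjusted p = 7.86e-05). At 3 nM the log2 FC was -0.72 (adjusted p = 0.0175), a call that was lost with DESeq2 and without replicate 1 of 3 nM. Without either 0 nM library its mean dropped under the 1 RPKM minimum, and in the fit of all genes it stayed called at 100 nM in each case. Mirg had 1 to 11 counts per library, namely 11 and 6 (0 nM), 9 and 9 (0.3 nM) and 10 and 3 (1 nM). Mirg then had 2 and 4 (3 nM), 7 and 3 (10 nM) and 1 and 3 (100 nM). The log2 FC at 100 nM was -2.12 (SE 0.85, adjusted p = 0.0737).

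Dio3, which encodes the deiodinase that inactivates thyroid hormone and lies at the far end of the cluster on mm10 chr12:110279230-110281097, nearly disappeared from the libraries. Its counts were 23 and 21 (0 nM), 19 and 21 (0.3 nM) and 10 and 10 (1 nM). Dio3 then had 0 and 1 (3 nM), 3 and 0 (10 nM) and 1 and 0 (100 nM). The 0 and 0.3 nM libraries overlapped, the 1 nM libraries lay below them, and from 3 nM no library had more than 3 counts. Summed over 2 libraries, the ratio to 0 nM was 0.455 at 1 nM (exact 95% counting interval 0.254 to 0.789), 0.0258 at 3 nM (0.000638 to 0.151) and 0.0224 at 100 nM (0.000554 to 0.131). In the fit of all genes the adjusted p was 0.404 at 1 nM and 6.95e-07 at 3 nM. With 10 and 100 nM it was 2.76e-06 and 1.88e-08. Dio3 was thus called lower at 3 nM, where 0.75% of all genes in that fit were called higher and 1.72% lower, and at 10 nM, where the shares were 1.7% and 3.14%. Between 3 and 0.3 nM, where 0.414% and 0.965% were called, its adjusted p was 2.79e-06.

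Rtl1, a retrotransposon-derived gene of the placenta, was called at 10 nM only. Its counts were 10 and 24 (0 nM), 9 and 13 (0.3 nM) and 14 and 13 (1 nM). Rtl1 then had 7 and 12 (3 nM), 5 and 5 (10 nM) and 8 and 6 (100 nM). The log2 FC was -1.76 at 10 nM (SE 0.56, adjusted p = 0.0226) and -1.36 at 100 nM (SE 0.53, adjusted p = 0.0628), and the latter passed without replicate 1 of 0 nM (adjusted p = 0.0222). Of its exon bases, 32.8% overlap other annotated genes. These are the antisense gene 6430411K18Rik, several antisense microRNAs and Mir3071 on the same strand. Since pairs were counted without strand, antisense reads in the other exon bases of Rtl1 cannot be told from its own. Dlk1, a transmembrane protein of the Notch ligand family, had 4 and 12 (0 nM), 8 and 5 (0.3 nM) and 9 and 6 (1 nM). Dlk1 then had 11 and 5 (3 nM), 13 and 8 (10 nM) and 4 and 10 (100 nM). It was not called, with a log2 FC of -0.29 at 100 nM (SE 0.63).

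In the H19/Igf2 cluster, the maternally expressed noncoding RNA H19 had 30 and 57 (0 nM), 22 and 38 (0.3 nM) and 27 and 27 (1 nM). H19 then had 19 and 20 (3 nM), 9 and 15 (10 nM) and 11 and 20 (100 nM). The 0 nM libraries differed widely, and all libraries from 1 nM upwards were below both of them. H19 went from 3.13 ± 1.27 RPKM at 0 nM to 0.885 ± 0.339 at 10 nM and 1.11 ± 0.445 at 100 nM (SD, n = 2), with log2 FCs of -1.82 (SE 0.40, adjusted p = 0.00187) and -1.50 (SE 0.38, adjusted p = 0.00481). Both calls were lost without replicate 2 of 0 nM, which had the most H19, and the adjusted p at 100 nM was then 0.158 and without replicate 1 of 100 nM 0.0977. In the fit of all genes H19 was also called at 3 nM (-1.01, adjusted p = 0.0409), as was Nnat (-0.61, adjusted p = 0.0344). Igf2, the growth factor gene expressed from the opposite chromosome, had 17 and 18 (0 nM), 10 and 19 (0.3 nM) and 14 and 14 (1 nM). Igf2 then had 15 and 12 (3 nM), 9 and 8 (10 nM) and 8 and 16 (100 nM). Its log2 FC at 100 nM was -0.64 (SE 0.45, adjusted p = 0.399).

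In the Kcnq1 cluster, the paternally expressed noncoding RNA Kcnq1ot1, which silences the neighbouring genes in cis, was not called in any comparison. Its counts were 2357 and 2074 (0 nM), 1937 and 1850 (0.3 nM) and 2053 and 2214 (1 nM). Kcnq1ot1 then had 1614 and 2307 (3 nM), 2419 and 2166 (10 nM) and 2153 and 2269 (100 nM). The log2 FC at 100 nM was -0.03 (SE 0.08, adjusted p = 0.850), and the 0.3 nM value, the lowest of the 5 doses, was -0.16 (adjusted p = 0.714). Ascl2, a maternally expressed transcription factor of trophoblast progenitors, had 11 and 11 (0 nM), 10 and 14 (0.3 nM) and 7 and 8 (1 nM). Ascl2 then had 4 and 3 (3 nM), 8 and 4 (10 nM) and 2 and 3 (100 nM). Its ratio to 0 nM at 100 nM was 0.224 (exact 95% counting interval 0.0662 to 0.606), with an adjusted p of 0.0263 in the fit of all genes. That call was lost with DESeq2 (0.148), in a fit of the 0 and 100 nM libraries alone (0.0705), without normalization factors (0.0501) and without any 1 of the 4 libraries (0.0958 to 0.196). Phlda2, a maternally expressed gene that restrains placental growth, had 41 to 63 counts per library and a log2 FC of -0.04 (SE 0.24). Cdkn1c, which encodes the cell cycle inhibitor p57, had 6 to 19 counts and was not called.

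In the Peg3 cluster, the paternally expressed zinc finger gene Peg3 had 1202 and 1314 (0 nM), 1256 and 1204 (0.3 nM) and 1305 and 1345 (1 nM). Peg3 then had 1184 and 1233 (3 nM), 1277 and 1274 (10 nM) and 1135 and 1051 (100 nM). Its log2 FC at 100 nM was -0.22 (SE 0.07, adjusted p = 0.0159), below the required fold, and 13.1% of its exon bases overlap the antisense Peg3os. Zim1, a maternally expressed zinc finger gene, had 5 and 3 (0 nM), 8 and 7 (0.3 nM) and 8 and 9 (1 nM). Zim1 then had 8 and 6 (3 nM), 7 and 8 (10 nM) and 16 and 14 (100 nM). Its ratio to 0 nM at 100 nM was 3.69 (exact 95% counting interval 1.65 to 9.32) with an adjusted p of 0.0363, and the call was lost with DESeq2 (0.156), in the pairwise fit (0.0855) and without any 1 of the 4 libraries (0.0780 to 0.290). Usp29, a ubiquitin protease gene read from the same paternal promoter region as Peg3, had 12 and 6 (0 nM), 9 and 9 (0.3 nM) and 13 and 15 (1 nM). Usp29 then had 8 and 18 (3 nM), 13 and 16 (10 nM) and 7 and 4 (100 nM). It was not called, and 33.5% of its exon bases overlap Zim3.

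Among the remaining members, none was called in any comparison by either fit. Above the minimum these were Commd1, Gnas, Grb10, Igf2r, Impact, Mkrn3, Ndn, Ube3a, Zdbf2 and Zrsr1, which with Kcnq1ot1, Peg3 and Phlda2 spanned log2 FCs of -0.93 to 0.26 at 100 nM. Mkrn3, a ring finger gene of the Snrpn/Ube3a cluster with 10 to 26 counts, had the lowest of these values (SE 0.41, adjusted p = 0.104). The adjusted p alone was passed at 100 nM by Igf2r, the receptor that clears IGF2, with a log2 FC of 0.24 (SE 0.08, adjusted p = 0.0209), by Impact, an inhibitor of the kinase GCN2, with 0.26 (adjusted p = 0.0296), and by Gnas, the gene of the stimulatory G protein alpha subunit, with 0.22 (adjusted p = 0.0411). Zdbf2, a zinc finger gene with 2353 to 2966 counts, had -0.05 (SE 0.06, adjusted p = 0.590), and Ube3a, the ubiquitin ligase gene that is imprinted in neurons, had 0.03 (SE 0.09, adjusted p = 0.866). The adaptor gene Grb10 had -0.27 (SE 0.11, adjusted p = 0.0754).

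Members below the minimum without a call included the Igf2r-silencing RNA Airn, with 0 to 7 counts per library, and the Snrpn/Ube3a genes Snrpn, Magel2 and Peg12. Snrpn, which encodes a spliceosomal protein, had 0 to 7 counts, but 82.8% of its exon bases are shared on the same strand with Snurf, which had 0 counts in the 12 libraries. Pairs that overlapped 2 genes were not counted, so the level of Snrpn was not measured by these counts. Magel2 had 1 to 8 counts, and Peg12, a GSK3-binding protein gene, had 2 to 9.

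**Figure D3:**
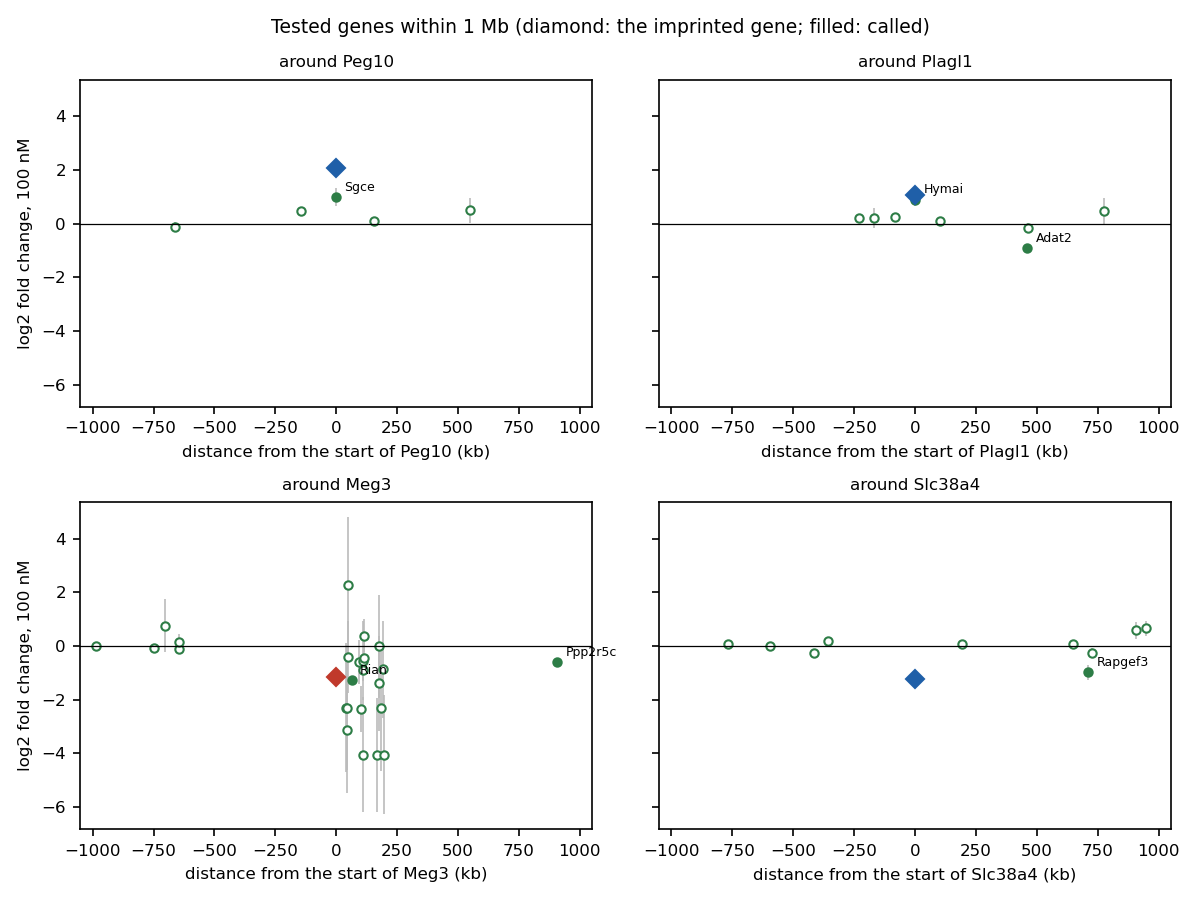
log2 FC with its SE, at 100 nM against 0 nM, of the genes above 1 RPKM whose starts lie within 1 Mb of Peg10, Plagl1, Meg3 or Slc38a4 (diamonds), against the distance between starts in kb, positive towards higher coordinates. Filled points are called, and the called neighbour at each of Peg10 and Plagl1 with a change in the same direction, Sgce and Hymai, lies 0.1 kb away.

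Among the tested genes within 1 Mb, 1 of 5 around Peg10 (Sgce), 2 of 8 around Plagl1 (Hymai higher and Adat2 lower), 2 of 25 around Meg3 (Rian and Ppp2r5c, both lower) and 1 of 10 around Slc38a4 (Rapgef3, lower) were called at 100 nM, where 4.37% of all genes tested were called higher and 6.83% lower. None of the 18 around Mest, the 20 around Nnat or the 12 around Gnas was called. Over all members, 175 different genes that are not members lay within that distance, and 4 of them (2.29%) were called higher and 8 (4.57%) lower. Most of the 25 around Meg3 are short noncoding RNAs of the cluster with wide errors. Adam23, 246 kb from Zdbf2, rose by a log2 FC of 1.22 (SE 0.11, adjusted p = 5.39e-09), whereas Zdbf2 did not pass the test.

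A window of 300 bases at each RefSeq start, from 250 bases before to 50 after, was available for 29 members (build GRCm38.p6, which is mm10) and gave 46 windows. Cdkn1c, H19, Impact, Peg10, Rtl1 and Sgce had no window here. The hexamer TGCCGC, which ZFP57 binds when it is methylated, was searched on both strands, where it reads GCGGCA on the other, and found in 11 of the 46 windows (23.9%) and in 11.6% of all 32851 windows. The median number of CpG was 13.5 per member window and 7 over all. Among the called members it was found in windows of Plagl1, Mest, Meg3, Nnat and Zim1, and not in those of Slc38a4, Dio3, Rian or Ascl2. The 250 bases before the start are given for 3 called members with the hexamer and for 2 without, to show how the windows of a riser and of members that fell differ in CpG, with the hexamer in capitals. They lie at chr10:13090582-13090831 on the plus strand (Plagl1), chr6:30737800-30738049 plus (Mest), chr12:109540746-109540995 plus (Meg3), chr12:110278980-110279229 plus (Dio3) and chr15:97055957-97056206 minus (Slc38a4).
Plagl1: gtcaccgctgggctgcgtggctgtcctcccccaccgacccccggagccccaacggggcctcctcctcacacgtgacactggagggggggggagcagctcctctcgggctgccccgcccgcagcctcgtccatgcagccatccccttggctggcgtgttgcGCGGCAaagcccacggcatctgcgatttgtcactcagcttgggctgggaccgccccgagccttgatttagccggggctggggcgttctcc
Mest: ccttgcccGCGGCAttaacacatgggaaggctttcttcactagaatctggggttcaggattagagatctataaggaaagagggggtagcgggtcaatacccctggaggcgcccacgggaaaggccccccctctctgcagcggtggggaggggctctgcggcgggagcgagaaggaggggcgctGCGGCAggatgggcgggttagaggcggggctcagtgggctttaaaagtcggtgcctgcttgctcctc
Meg3: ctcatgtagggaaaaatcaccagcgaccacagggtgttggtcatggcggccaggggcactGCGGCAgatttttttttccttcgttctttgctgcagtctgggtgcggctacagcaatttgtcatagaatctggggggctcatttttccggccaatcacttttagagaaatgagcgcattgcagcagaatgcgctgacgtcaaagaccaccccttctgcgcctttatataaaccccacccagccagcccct
Dio3: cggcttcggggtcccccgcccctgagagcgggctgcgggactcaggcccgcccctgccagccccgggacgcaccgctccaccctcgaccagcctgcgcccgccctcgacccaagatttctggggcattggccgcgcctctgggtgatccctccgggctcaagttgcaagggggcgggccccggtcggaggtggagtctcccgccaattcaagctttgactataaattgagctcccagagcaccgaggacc
Slc38a4: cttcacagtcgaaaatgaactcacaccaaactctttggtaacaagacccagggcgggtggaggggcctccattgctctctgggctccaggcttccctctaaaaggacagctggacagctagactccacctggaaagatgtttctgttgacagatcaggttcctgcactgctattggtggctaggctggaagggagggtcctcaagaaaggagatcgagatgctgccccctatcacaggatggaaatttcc
These stretches hold 19 CpG in Plagl1, 14 in Mest, 10 in Meg3, 21 in Dio3 and 3 in Slc38a4. The value of Plagl1, which rose, lay within the range of the members that fell. Other windows of Mest, Meg3 and Slc38a4, and that of Zim1, are not shown. The hexamer stood before a gene that rose and before genes that fell, and before Zdbf2, whose window had it 3 times and whose level did not pass the test.

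The genes that keep imprints were measured beside the members. All 22 listed regulators were above the minimum. At 100 nM, 1 (4.55%) was called higher, Tet3, and 1 (4.55%) lower, Tet1. These shares were near those of all genes tested, 4.37% higher and 6.83% lower. Tet3 and Tet1 both encode enzymes that oxidize methylated cytosine. Tet3 went from 2.24 ± 0.236 to 5.18 ± 0.504 RPKM and Tet1 from 77.1 ± 0.843 to 50.7 ± 2.03 RPKM (SD, n = 2), log2 FCs of 1.21 (adjusted p = 1.0e-08) and -0.60 (adjusted p = 7.75e-10). The de novo methyltransferase gene Dnmt3b was called higher at 3 nM only (0.60, adjusted p = 6.28e-07). Its value was below the required fold there in the fit of all genes (0.56) and between 3 and 0.3 nM (0.43). Dnmt3a was called lower only in the fit of all genes, at 10 nM (-0.59, adjusted p = 1.11e-07) and at 100 nM (-0.64, adjusted p = 2.39e-09). Zfp57 and Trim28, which protect imprints from loss of methylation, passed the test at 100 nM with log2 FCs of 0.20 (SE 0.06, adjusted p = 0.00921) and 0.33 (SE 0.06, adjusted p = 6.2e-05), below the required fold. The maintenance methyltransferase gene Dnmt1 and its partner Uhrf1 had 0.03 (SE 0.06, adjusted p = 0.777) and -0.06 (SE 0.05, adjusted p = 0.402). Dppa3 and Ctcf, the insulator protein gene, had 0.63 (SE 0.37, adjusted p = 0.238) and -0.04 (SE 0.06, adjusted p = 0.728).

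Of 38 further imprinted genes, 20 were above the minimum. At 100 nM, 1 of these (5%) was called higher and 1 (5%) lower. These shares were near those of all genes tested, 4.37% higher and 6.83% lower. Sfmbt2, a paternally expressed Polycomb-related gene of the placenta, went from 1.53 ± 0.238 to 8.41 ± 0.253 RPKM (SD, n = 2), with log2 FCs of 1.14 at 3 nM (adjusted p = 1.49e-05), 1.62 at 10 nM and 2.46 at 100 nM (SE 0.14, adjusted p = 4.84e-13). Cd81, a tetraspanin gene 83.5 kb from Ascl2 and 475 kb from H19, fell from 79.2 ± 2.17 to 39.9 ± 2.91 RPKM (SD, n = 2). Its log2 FC was -0.99 (adjusted p = 2.56e-09). Tspan32, also a tetraspanin gene of that region, was called lower at 3 nM in the fit of all genes (-2.18, SE 0.66, adjusted p = 0.0214).

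The genes described above as acting in the placenta or its trophoblast did not move together. At 100 nM Peg10 and Sfmbt2 were called higher, Slc38a4 and, in the fit of all genes, Ascl2 lower, and Phlda2 and Rtl1 were not called. Markers of trophoblast were measured beside them. The list of these markers also holds Ascl2, which was left out of their summed level. Over the other 7 it was 13.3 to 16.3 RPKM at 0 nM and 22.6 to 22.9 RPKM at 100 nM. The largest part was Eomes, with means of 9.16 RPKM at 0 nM and 11.5 RPKM at 100 nM. Between these doses Cdx2 went from 0.548 to 4.72 RPKM, Tfap2c from 3.36 to 5.43 and Gata3 from 1.32 to 0.559. At 100 nM, Cdx2 (log2 FC 3.10, adjusted p = 2.4e-06) and Tfap2c (0.69, adjusted p = 0.0109) were called higher. Gata3 was called lower in the fit of all genes (-1.31, adjusted p = 0.0114), and Elf5, Krt7 and Hand1 were not called. Eomes was called higher at 3 nM only (0.59, SE 0.12, adjusted p = 0.00161), and in the fit of all genes it was below the required fold there (0.55). The summed level of 6 primitive endoderm markers was 101 to 119 RPKM at 0 nM and 34.5 to 34.8 RPKM at 100 nM, nearly all of it Sparc (-1.74, adjusted p = 1.21e-14), and Pdgfra was called higher in the fit of all genes (2.28, adjusted p = 0.000679). Of the 8 naive markers, 5 passed the adjusted p at 100 nM, with a median log2 FC of 0.16 over the list. Nanog (0.52, SE 0.05, adjusted p = 1.79e-08) and Klf4 (0.28, adjusted p = 0.00163) were higher and Pou5f1 (-0.17, adjusted p = 0.0301) and Esrrb (-0.17, adjusted p = 0.0433) lower, all below the required fold, and Tfcp2l1 (-0.64, adjusted p = 1.4e-10) was the 1 called, as lower. In bulk RNA, a change in the share of cells that express a gene and a change in its level per cell cannot be told apart, and the part of these markers' cells in the members' changes was not tested.

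**Figure D4:**
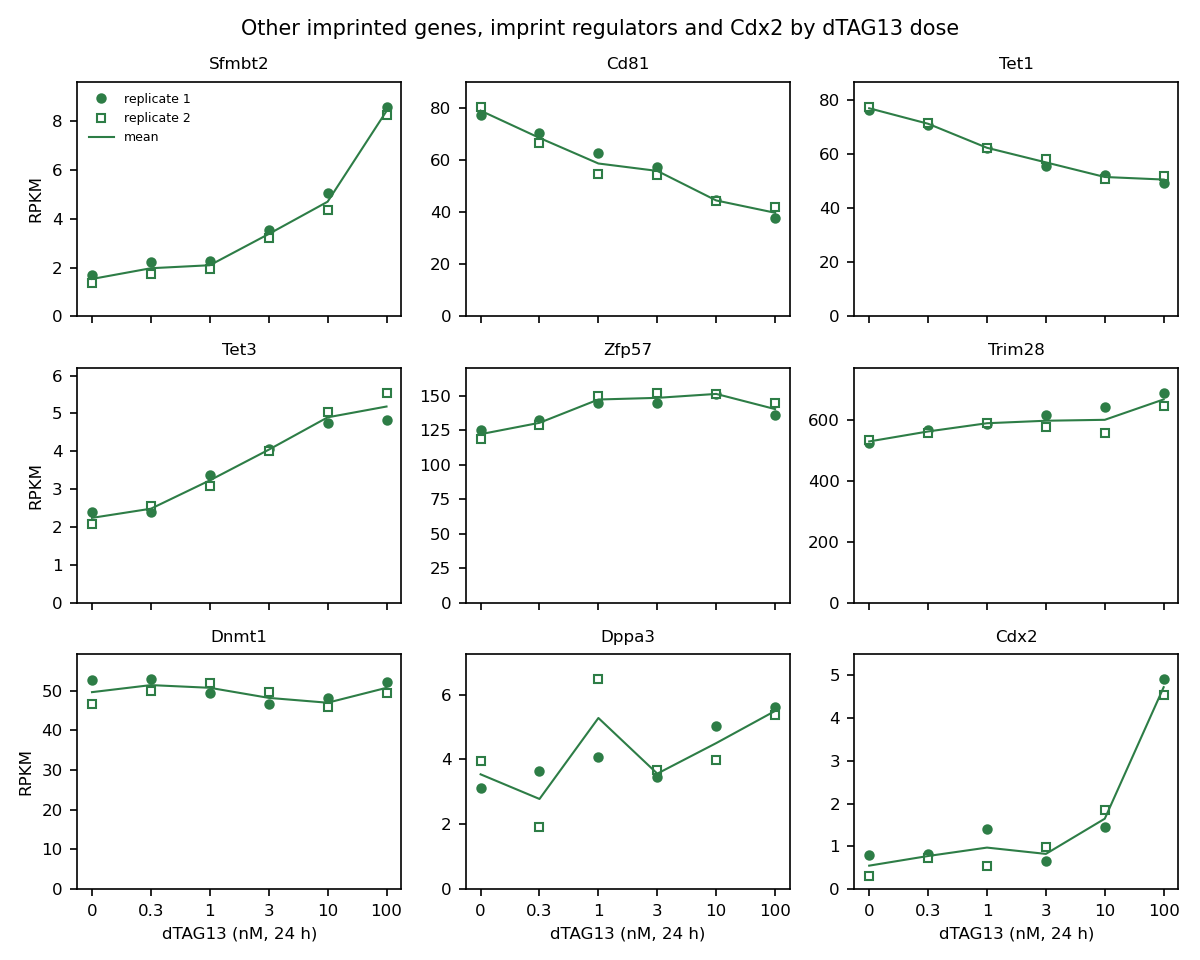
RPKM of the further imprinted genes Sfmbt2 and Cd81, of imprint regulators and of the trophoblast marker Cdx2 in each of the 12 libraries against the dTAG13 dose in nM (categories, not to scale), with replicate 1 as filled circles, replicate 2 as open squares and a line through the means of 2. Sfmbt2 climbs from 1.53 to 8.41 RPKM and Tet1 goes from 77.1 to 50.7 RPKM, while Dnmt1 stands at 49.6 and 50.7 RPKM at 0 and 100 nM.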

How the data were processed

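For the 12 libraries, the authors deposited counts of read pairs for each gene symbol, not normalized. Per the labels and methods, reads were trimmed with Trim Galore, aligned to mm10 with HISAT2 and counted on exons with featureCounts, without strand although the kit keeps it, with multi-mapped pairs and pairs overlapping 2 genes left out. All 12 count columns were used. From them, RPKM were computed with edgeR's TMM factors, recomputed over the genes kept (0.949 to 1.06), and the deposited exon lengths. Those 11378 genes whose mean over the libraries was 1 RPKM or more were tested with edgeR 4.0.16 in R 4.3.3 (quasi-likelihood F test, all 6 conditions in 1 fit, Benjamini-Hochberg adjustment), and a second fit held the 23204 genes with a count. Standard errors were derived from the log2 fold change and its F. The common biological coefficient of variation was 6.20%. The exact intervals were computed from summed counts, so they cover counting error only and not the spread between libraries. Reads carry no molecular identifiers, so duplicate reads could not be told from separate molecules. The likelihood ratio test of the study's methods was run as an alternative, beside DESeq2 1.42.0, other normalizations, filters and fits, and fits without single libraries.

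The study describes its expression data as 2 independent experiments, while the labels do not say how the 2 libraries of a dose were raised, and p-values measure the spread between them. Replicate libraries differed by more than counting noise. The replicate numbers did not pair the libraries. In simulated counts for 100 nM against 0 nM (11377 genes), 93% of 200 genes changed 3-fold were called, as were 7 of 11177 unchanged genes. These shares do not cover changes smaller than 3-fold or the members below the minimum.

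Every member was named, and members called in any comparison, with the partner of opposite parental origin in their cluster, were given library by library. Zfp57, Trim28, Dnmt1, Uhrf1, Dppa3 and Ctcf were always named, and other listed genes where called. The members, the lists of regulators, further imprinted genes and cell type markers (among them 5 markers of 2-cell-like cells, whose summed level was 1.75 to 4.61 RPKM) and the tests were chosen with earlier results of these data known. Sequences came from RefSeq on GRCm38.p6. Figures were drawn with matplotlib 3.10.9.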

Additional observations from a re-analysis of the deposited data

How the results depend on the processing

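At 1 nM, 4 members were called, and 2 with DESeq2. Leaving out single libraries gave 1 to 3. At 3 nM, 4 were called, 7 with no fold change minimum and 7 with no filter on low values, and 2 to 4 with a library left out. At 10 nM, 8 were called, and 4 to 7 with a library left out. At 100 nM, 8 were called, and 5 to 7 with a library left out. Between 3 and 0.3 nM, 2 were called, 1 with DESeq2, and 1 to 2 with a library left out. In the fit of all genes at 100 nM, 11 were called, 7 in the pairwise fit, and 7 to 9 with a library left out. The cause of these differences was not tested, apart from the loss of Meg3 without a 0 nM library, which fell under the 1 RPKM minimum. All other alternatives stayed within 1.5 times the main count. The replicate numbers did not pair the libraries (correlations of deviations -0.12 to 0.10 over 15 pairs of conditions, 0 over 0.1), and with a replicate block the counts were 0, 4, 4, 8 and 8 at 0.3, 1, 3, 10 and 100 nM, 2 between 3 and 0.3 nM, and 11 in the fit of all genes at 100 nM. For single members at 100 nM, 406 of 427 alternative values kept the side of the threshold, 19 lost it and 2 gained it (Mirg with the likelihood ratio test, adjusted p = 0.0462, and Rtl1 without replicate 1 of 0 nM), and 0 called members changed direction. Among these 427 values, those that changed were of Ascl2, H19, Mirg, Rtl1, Sgce and Zim1, all with fewer than 60 counts in every library. Meg3, with more counts, fell under the minimum without either 0 nM library. Its lost calls there gave no value and are not among the 427. Depth limits the 13 members below the minimum most, since a few counts decide their values.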
